A study of Mus musculus with 6 samples.

Results

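The integrated stress response is described here through 36 genes of the ATF4 and CHOP pathway in lenses of mice with and without a βB2-crystallin substitution. The members are a list of names: transcription factors of the pathway, regulators that act back on translation and growth, enzymes of amino acid synthesis and of mitochondrial folate metabolism, amino acid transporters, and secreted factors with a lipoprotein receptor. A probe was found for 35 of the 36, 33 could be tested, and the test ran over 12785 genes of 20659 named on the arrays. Pycr1, the enzyme of the last step of proline synthesis, had no probe named through the reference table. Stc2 and Fgf21 were too dim to be tested.

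Total RNA of lenses from mice aged 3 months was measured on single-colour Agilent arrays, 3 per genotype. The knock-in mice were made with CRISPR/Cas9 and carry W151C, which replaces tryptophan 151 of βB2-crystallin, a major structural protein of the lens encoded by Crybb2, with cysteine. The other group was wild type. The labels do not say whether the knock-in mice were heterozygous or homozygous, nor how many animals or lenses an array held, so each p-value reflects how much the arrays of a genotype differed, and part of that spread may be technical.

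In the integrated stress response, kinases that sense amino acid shortage, unfolded protein in the endoplasmic reticulum, double-stranded RNA or heme shortage phosphorylate the translation factor eIF2. General translation then slows, while the mRNA of the transcription factor ATF4 is translated more, and ATF4, with partners such as CHOP and C/EBP proteins, raises the transcription of genes for amino acid supply and for feedback on the pathway itself. In the lens, which consists mainly of fibre cells filled with crystallins, this response is best known from animals that express mutant lens proteins.

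ATF4 binds the C/EBP-ATF response element as a heterodimer with a C/EBP protein, and the promoters of the members were searched for it to show the sequences that the list holds. RefSeq windows of assembly GRCm38.p6, from 250 bases before to 50 bases after the start of transcription, were found for 31 of the 36 members (none for Eif4ebp1, Cth, Aldh1l2, Slc7a5 and Slc7a3). The motif TGATGNAAN, on either strand, was present in 10 of the 31 (32.3%), against 1215 of 27025 genes with a window (4.5%). The narrower form TGATGCAAN, which every match of the wider motif with C at that place also meets, was in 8 of the 31 (25.8%) against 277 genes (1.02%). The cyclic AMP response element TGACGTCA was in 1 member, Ppp1r15a (3.23%), against 549 genes (2.03%). The match, in capitals, with 10 bases on either side of it reads as follows, 5′ to 3′ on the strand of the gene, for the 5 members with a match that were higher in the knock-in and for 2 that did not pass the test; a match that ends in CATCA lies on the opposite strand.
Trib3, chr2:152344029-152344057, minus strand: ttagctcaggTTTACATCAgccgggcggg
Asns, chr6:7693214-7693242, minus strand: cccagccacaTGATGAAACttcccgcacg
Chac1, chr2:119351038-119351066, plus strand: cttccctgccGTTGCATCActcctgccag
Got1, chr19:43524690-43524718, minus strand: cattgcattgGTTGCATCAtacaagcctc
Nupr1, chr7:126625563-126625591, minus strand: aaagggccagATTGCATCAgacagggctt
Slc1a4, chr11:20332700-20332728, minus strand: tgcctcctgcGTTGCATCAtctccagcct
Vldlr, chr19:27216809-27216837, plus strand: agcagcaataGTTGCATCAgcgctcctag
The other 3 members with a match were Atf3, Pycr1 and Fgf21. A match was found in 5 of the 18 members with a window that were higher in the knock-in and in 5 of the 13 other members with a window. The match is a run of letters in a window, and no binding was measured.

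Levels are the log2 of an array's signal relative to the 75th percentile of that array, so that a gene at 0 is as bright as that percentile. The percentile itself was 698 intensity units on wild type array 3 and 120 to 201 units on the other 5 arrays. The share of spots well above background ranged from 45.5% to 58.4%, and 0 spots were saturated. Slides were inferred from scan times, and a slide effect and a genotype effect cannot be told apart. All 3 knock-in arrays shared a scan time and were taken as 1 slide, and wild type arrays 1 and 2 as another. Wild type array 3 was scanned on another day and was taken as a slide of its own. This last array also stood apart from its group: it correlated at 0.961 and 0.953 with wild type arrays 1 and 2, which correlated with each other at 0.996. Lens fibre markers were well above background on all 6 arrays for 10 of 10 genes, with a summed linear signal (relative to the 75th percentile) of 1276 to 1456 in the knock-in against 1106 to 3677 in wild type, where the lowest value was that of wild type array 3. In whole lenses, fewer cells of a type and less RNA per cell cannot be told apart.

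Most members were higher in the knock-in lenses. Of the 33 tested members, 22 were higher at an adjusted p under 0.05 (limma, Benjamini-Hochberg over all genes tested), against 13.3% of all genes, and 2, Sesn2 and Ppp1r15a, were lower, against 12.6% of all genes. The remaining 9 did not pass. The median log2 fold change was 1.14 over the tested members and -0.036 over all genes; the difference was positive in 29 members and negative in 4. A difference of at least 2-fold was reached by 17 of the members called higher, against 6.59% of all genes, and by 1 called lower, against 7.81%. All knock-in arrays lay above all wild type arrays in 24 members, against 22.7% of all genes, and below them in 2, against 23.1% of all genes. With the arrays centred on their median instead, 18 members were higher, against 8.94% of all genes, and 2 lower, against 12.9%: Atf4, Cebpg, Nupr1, Psph and Slc7a5 did not pass (adjusted p between 0.0621 and 0.186) and Atf3 did (0.00138). In that setting the share of calls that were higher over all genes was 40.9% rather than 51.2%.

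**Figure D1:**
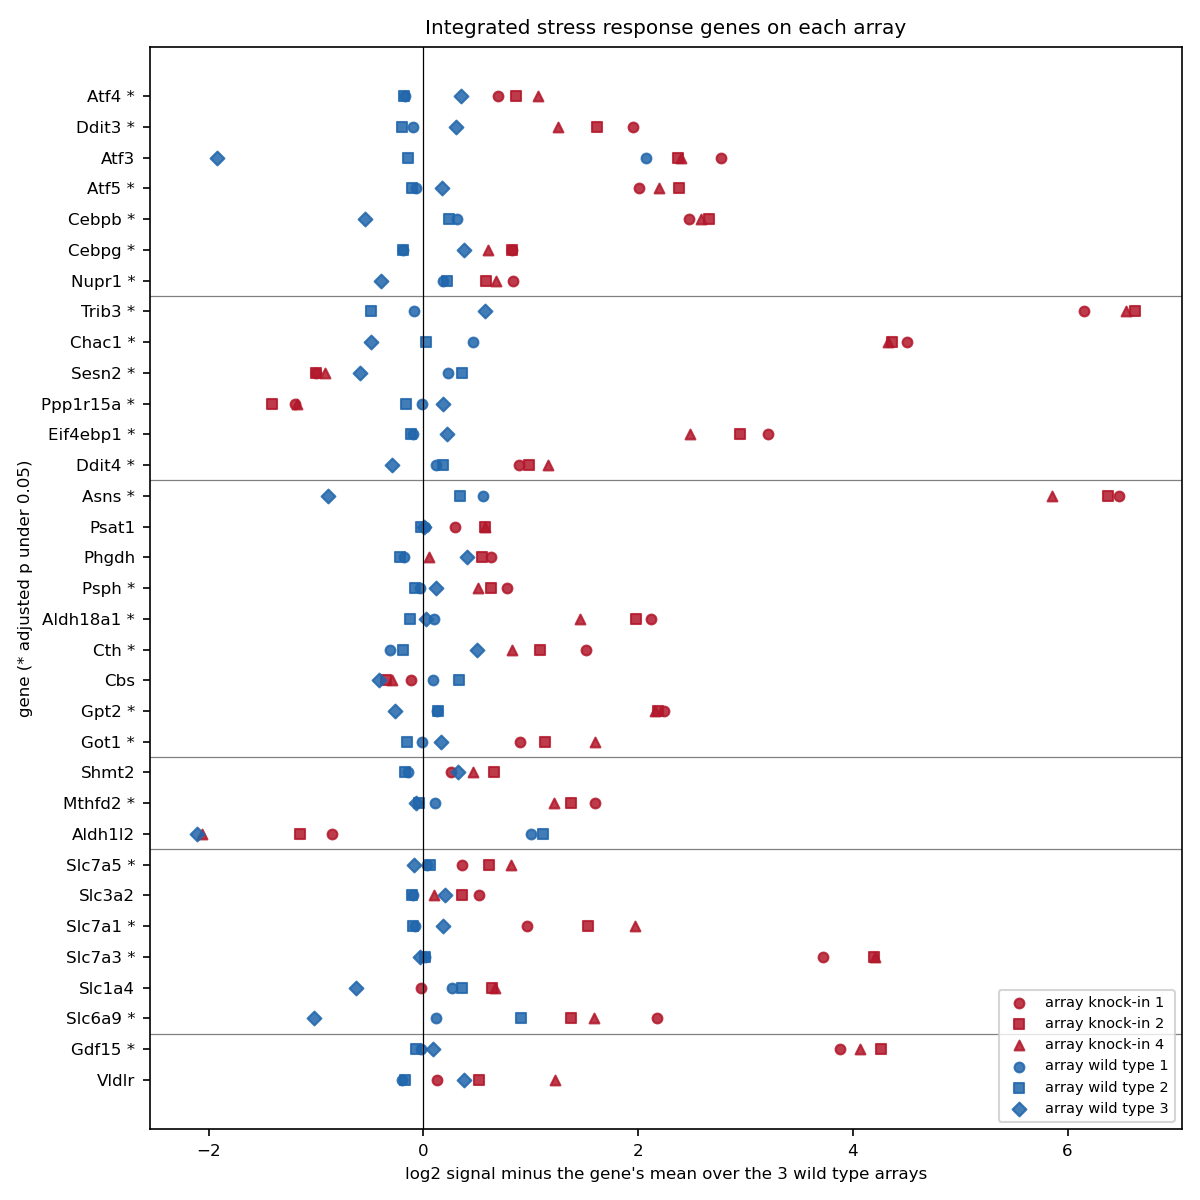
Each row is 1 of the 33 tested members, grouped by role from transcription factors at the top to Gdf15 and Vldlr at the bottom; the horizontal axis is the log2 signal on each of the 6 arrays minus the mean of the 3 wild type arrays, with red for knock-in and blue for wild type and a marker per array. Trib3 and Asns lie furthest to the right, at log2 fold changes of 6.44 and 6.24, Sesn2 and Ppp1r15a are the only called members to the left of 0, and the knock-in and wild type points of 24 members do not overlap on the right.

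Among the transcription factors, 6 of 7 were higher and none lower, with a median log2 fold change of 1.60. In what follows, levels are listed for knock-in arrays 1, 2 and 4 and then for wild type arrays 1, 2 and 3. Atf4 itself, the central factor of the response, stood at 5.32, 5.49 and 5.69 against 4.46, 4.44 and 4.98. The groups did not overlap, with wild type array 3 nearest to the knock-in arrays. The log2 fold change was 0.88 (SE 0.21, adjusted p = 0.0227), the dimmer of the pair of Atf4 probes gave 1.78, and the fit was 1.33 on the mean of both and 1.49 after normexp with quantile normalization. The call was lost without knock-in array 2 or 4 or wild type array 1 or 2 (adjusted p between 0.0708 and 0.0951).

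Atf5, a related factor whose mRNA is also translated more under eIF2 phosphorylation, stood at 5.17, 5.55 and 5.36 against 3.10, 3.06 and 3.34. Its arrays were tight within each genotype, and its log2 fold change was 2.19 (SE 0.17, adjusted p = 0.000386). Cebpb, a C/EBP partner of ATF4, stood at 3.63, 3.82 and 3.75 against 1.46, 1.40 and 0.61. The lowest was wild type array 3, and the log2 fold change was 2.58 (SE 0.25, adjusted p = 0.000821). Ddit3, which encodes CHOP, the factor tied to death under prolonged stress, stood at 1.90, 1.57 and 1.20 against -0.15, -0.25 and 0.26. All knock-in arrays were above the highest wild type array, with a log2 fold change of 1.60 (SE 0.24, adjusted p = 0.00409).

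Cebpg and Nupr1 were higher by less. Cebpg, another partner of ATF4, stood at 1.62, 1.62 and 1.39 against 0.60, 0.61 and 1.17. The gap between knock-in array 4 and wild type array 3 was small, and the log2 fold change was 0.75 (SE 0.21, adjusted p = 0.0367). Nupr1, a small chromatin-associated stress protein, stood at 8.24, 7.98 and 8.07 against 7.58, 7.62 and 7.01. The groups did not overlap, and its log2 fold change was 0.70 (SE 0.21, adjusted p = 0.0493). Leaving out any single array other than wild type array 3 ended both calls, with an adjusted p between 0.064 and 0.14 for Cebpg and between 0.0765 and 0.125 for Nupr1; the Nupr1 difference was 1.13 after quantile normalization and 0.43 with array weights. Atf3, a stress-induced factor that acts downstream of ATF4, stood at 0.82, 0.42 and 0.45 against 0.12, -2.10 and -3.88. The wild type arrays spread over a wide range without reaching the knock-in arrays, and the log2 fold change of 2.52 (SE 0.89, adjusted p = 0.0784) did not pass; without wild type array 1 it was 3.55 (adjusted p = 0.00713).

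The regulators that feed back on translation and growth split: 4 were higher and 2 lower of 6. Trib3, a pseudokinase that restrains ATF4 and CHOP, stood at 2.81, 3.28 and 3.20 against -3.43, -3.84 and -2.77. The groups were far apart, and the log2 fold change of 6.44 (SE 0.29, adjusted p = 5.24e-05), or 87.0-fold, was the 6th largest rise among all genes tested. Trib3 was the only tested member that was not well above background on every array. It was so on 2 of 3 wild type arrays and passed the filter only through the knock-in arrays. After normexp background correction with quantile normalization its log2 fold change was 4.38, or 20.8-fold (adjusted p = 1.49e-05). Chac1, an enzyme that degrades glutathione, stood at 3.03, 2.88 and 2.85 against -1.02, -1.45 and -1.97. Its log2 fold change of 4.40 (SE 0.25, adjusted p = 0.000144) was the 56th largest rise, and 3.64 after that correction.

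Eif4ebp1, which holds back cap-dependent translation, stood at 4.29, 4.03 and 3.57 against 0.98, 0.96 and 1.31, with every knock-in array far above wild type. Its log2 fold change was 2.88 (SE 0.23, adjusted p = 0.000382). Ddit4, an inhibitor of the growth kinase complex mTORC1 also known as REDD1, stood at 3.71, 3.80 and 3.98 against 2.93, 3.00 and 2.52. The groups did not overlap, and the log2 fold change was 1.01 (SE 0.19, adjusted p = 0.00938).

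Ppp1r15a and Sesn2 went the other way. Ppp1r15a encodes GADD34, the subunit that directs a phosphatase to eIF2 and so ends the response; it stood at 2.09, 1.88 and 2.11 against 3.27, 3.12 and 3.46. All knock-in arrays were below all wild type arrays, and the log2 fold change was -1.26 (SE 0.17, adjusted p = 0.00264). Sesn2, a leucine sensor that inhibits mTORC1, stood at 2.13, 2.13 and 2.21 against 3.37, 3.49 and 2.54. The groups did not overlap, although wild type array 3 came near, and the log2 fold change was -0.98 (SE 0.26, adjusted p = 0.0347). The Sesn2 call was lost without any 1 array other than wild type array 3 (adjusted p between 0.0813 and 0.12).

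Of the enzymes of amino acid synthesis, 6 of 9 were higher and none lower, with a median of 1.14. Asns, asparagine synthetase, stood at 4.91, 4.81 and 4.28 against -1.02, -1.24 and -2.46. The distance between the groups was several times the spread within either, and the log2 fold change of 6.24 (SE 0.39, adjusted p = 0.000197), or 75.4-fold, was the 7th largest rise among all genes tested. After normexp with quantile normalization it was 5.26, or 38.3-fold (adjusted p = 3.11e-06). Gpt2, the mitochondrial alanine transaminase, stood at -0.65, -0.70 and -0.73 against -2.76, -2.75 and -3.15. The knock-in arrays were nearly identical, and the log2 fold change was 2.19 (SE 0.17, adjusted p = 0.000372). Aldh18a1, which makes the precursor of proline, stood at 0.64, 0.50 and -0.02 against -1.38, -1.61 and -1.46. Knock-in array 4 was the lowest of its group and still above all wild type arrays, with a log2 fold change of 1.85 (SE 0.21, adjusted p = 0.00146). After normexp with quantile normalization Gpt2 was at 1.11 (adjusted p = 0.000519) and Aldh18a1 at 1.15 (adjusted p = 0.00078).

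Got1, the cytosolic aspartate transaminase, stood at 0.60, 0.83 and 1.29 against -0.32, -0.45 and -0.14. No overlap was seen, and the log2 fold change was 1.21 (SE 0.22, adjusted p = 0.00828). Cth, which makes cysteine from cystathionine, stood at -1.08, -1.52 and -1.77 against -2.91, -2.79 and -2.10. The smallest gap was between wild type array 3 and knock-in array 4, and the log2 fold change was 1.14 (SE 0.28, adjusted p = 0.0253). Cbs, the enzyme of the step before Cth, overlapped between the genotypes and had a log2 fold change of -0.25 (SE 0.22, adjusted p = 0.44).

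The enzymes of the serine pathway had log2 fold changes of 0.41 to 0.64 on the tested probes. Psph, of the last step, stood at 2.04, 1.90 and 1.77 against 1.23, 1.19 and 1.38. Knock-in lay above wild type throughout, with a log2 fold change of 0.64 (SE 0.16, adjusted p = 0.0252). The calls of Psph and Cth were lost without knock-in array 1 or 2 or wild type array 1 or 2 (adjusted p between 0.0551 and 0.114 for Psph and between 0.0772 and 0.09 for Cth), and after normexp with quantile normalization Cth was at 0.41 (adjusted p = 0.121). Psat1, of the middle step, stood at 3.75, 4.03 and 4.04 against 3.47, 3.44 and 3.47. All knock-in arrays were above wild type, but the log2 fold change of 0.48 (SE 0.15) had an adjusted p of 0.06 and passed only without knock-in array 1 (adjusted p = 0.0408) or wild type array 3 (adjusted p = 0.0404) among the fits that leave out 1 array. Phgdh, which starts the pathway, stood at 3.00, 2.91 and 2.42 against 2.19, 2.16 and 2.77 on the tested probe. It overlapped between the genotypes there and had a log2 fold change of 0.41 (SE 0.25, adjusted p = 0.262). Its dimmer probe stood at 2.87, 2.65 and 2.20 against 1.65, 1.57 and 1.82, without overlap.

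The mitochondrial folate enzymes did not move together. Mthfd2, the dehydrogenase and cyclohydrolase of the pathway, stood at 1.24, 1.02 and 0.86 against -0.25, -0.39 and -0.42. The groups were well apart, and the log2 fold change was 1.39 (SE 0.17, adjusted p = 0.00172). Shmt2, which turns serine into glycine, had a log2 fold change of 0.46 (SE 0.20, adjusted p = 0.138), and 0.62 (adjusted p = 0.0235) without wild type array 3. Aldh1l2, which releases the carbon unit from folate, stood at 0.30, 0.005 and -0.91 against 2.15, 2.26 and -0.96. Wild type array 3 lay with the knock-in arrays and far from the other wild type arrays: the log2 fold change was -1.36 (SE 0.85, adjusted p = 0.28) with all arrays and -2.41 (adjusted p = 0.00381) without that array.

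Among the amino acid transporters, 4 of 6 were higher and none lower, with a median of 1.04. Slc7a3, a carrier of cationic amino acids, stood at 0.57, 1.04 and 1.06 against -3.13, -3.14 and -3.19. The wild type arrays were almost the same, and the log2 fold change of 4.04 (SE 0.18, adjusted p = 5.24e-05), or 16.5-fold, was the 86th largest rise; after normexp background correction with quantile normalization it was 2.44, or 5.41-fold (adjusted p = 4.27e-05). Its relative Slc7a1 stood at 0.21, 0.78 and 1.21 against -0.83, -0.86 and -0.58. The knock-in arrays were more spread than wild type but did not overlap with it, and the log2 fold change was 1.49 (SE 0.27, adjusted p = 0.00851).

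Slc6a9, the glycine transporter GlyT1, stood at 1.30, 0.50 and 0.71 against -0.76, 0.03 and -1.89. Both groups were spread, and the log2 fold change was 1.71 (SE 0.48, adjusted p = 0.039); its call was lost without any 1 of the knock-in arrays or without wild type array 1 (adjusted p between 0.0814 and 0.129), and with array weights it was 1.11. Slc7a5, the light chain of the leucine transporter LAT1, stood at -0.33, -0.07 and 0.13 against -0.66, -0.62 and -0.78. The groups did not overlap on this probe, with a log2 fold change of 0.60 (SE 0.17, adjusted p = 0.0443). Its dimmer probe gave -0.09, the mean of the pair 0.25 (adjusted p = 0.431), and the call was also lost without knock-in array 2 or 4 or wild type array 1 or 2 (adjusted p between 0.114 and 0.149). Slc3a2, the heavy chain that pairs with Slc7a5, had a log2 fold change of 0.33 (SE 0.18, adjusted p = 0.226). Slc1a4, a carrier of small neutral amino acids, had one of 0.43 (SE 0.32, adjusted p = 0.363), and both overlapped between the genotypes.

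Of the secreted factors, Gdf15, a circulating stress hormone, stood at 3.69, 4.07 and 3.87 against -0.21, -0.26 and -0.11. Neither group spread beyond a small part of the distance between them; the log2 fold change of 4.07 (SE 0.16, adjusted p = 3.79e-05), or 16.8-fold, was the 84th largest rise and had the lowest adjusted p of the tested members. Fgf21, a hormone of nutrient stress, was well above background on 1 knock-in array and on 0 wild type arrays, with measured levels of -2.51, -2.54 and -3.65 against -6.07, -5.77 and -6.71. Most of these levels are not well above background, so no fold is given; it did not pass the filter and was not tested. Stc2, a secreted glycoprotein, was not well above background on any array. Vldlr, a lipoprotein receptor, stood at 1.16, 1.55 and 2.26 against 0.83, 0.86 and 1.41, overlapped between the genotypes, and had a log2 fold change of 0.62 (SE 0.31, adjusted p = 0.183).

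A second probe was present for 8 members. It gave a difference of the same sign in 7 of them, Slc7a5 being the exception. The dimmer probe gave more than the tested one for Atf4, Vldlr (1.17), Phgdh (0.89) and Psph (0.82), and less for Psat1 (0.32), Cth (0.82) and Slc6a9 (1.67). With the mean of a gene's probes, Vldlr passed the test (0.90, adjusted p = 0.044), Slc7a5 did not, and 22 members were higher and 2 lower, each against 12.9% of all genes.

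**Figure D2:**
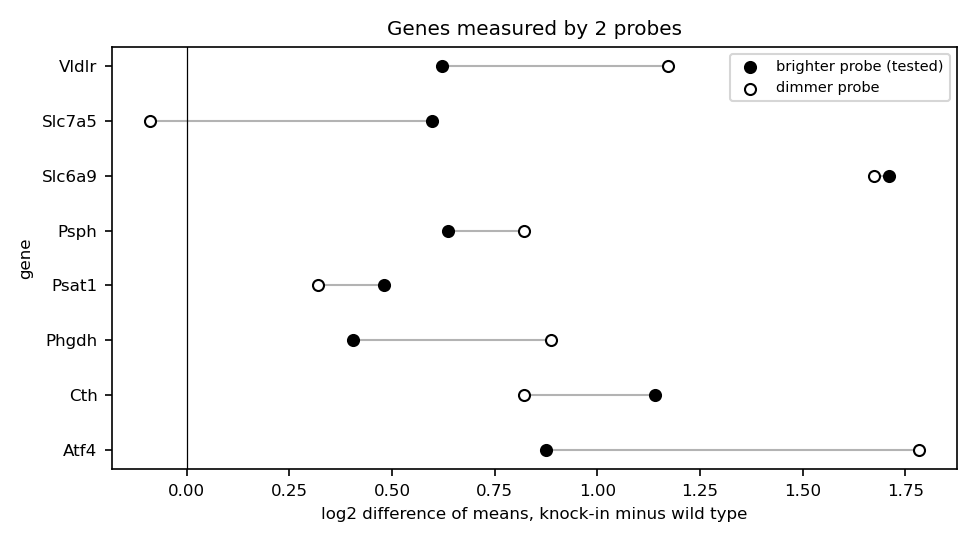
The 8 members measured by 2 probes are shown in rows, with the log2 difference of the group means (knock-in minus wild type) on the horizontal axis; a filled point is the brighter probe, which was tested, and an open point the dimmer one. Only the dimmer Slc7a5 probe falls to the left of 0, at -0.09, and the pair of Atf4 probes is furthest apart, at 0.88 and 1.78.

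The genes were also fitted with scan day as a block and, separately, with the inferred slide as a random one. No slide held both genotypes, so the random block cannot take a slide effect out of the differences. It set the correlation within a slide at 0.564, and only the wild type arrays span more than 1 slide. A call kept in that fit is therefore not a call corrected for slide. With slide as a random block, 11 members were higher, against 2.83% of all genes, and 1 was lower, against 2.02% of all genes; the median of the members was 1.06. The 12 that kept their call were Atf5, Cebpb, Trib3, Chac1, Eif4ebp1, Asns, Aldh18a1, Gpt2, Mthfd2, Slc7a3, Gdf15 and, lower, Ppp1r15a. These same 12 kept their call in every alternative in which they had a value; Trib3 had none where every array had to be above background. The other 12 called members lost their call under the slide block, with an adjusted p of 0.0771 for Ddit3, 0.0937 for Ddit4, 0.141 for Got1, 0.149 for Slc7a1, 0.187 for Slc6a9, 0.209 for Atf4, 0.219 for Sesn2, 0.228 for Nupr1, 0.23 for Cth, 0.246 for Psph, 0.263 for Cebpg and 0.32 for Slc7a5. With scan day as a block, which compares knock-in with the 2 wild type arrays of the same day, 24 members were higher, against 19.6% of all genes, and 4 lower, against 24% of all genes, with a median of 1.20. Cbs (-0.46, adjusted p = 0.0488) and Aldh1l2 (-2.41, adjusted p = 0.0035) joined the lower members there, and Psat1 (adjusted p = 0.0392) and Shmt2 (adjusted p = 0.0225) the higher ones.

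**Figure D3:**
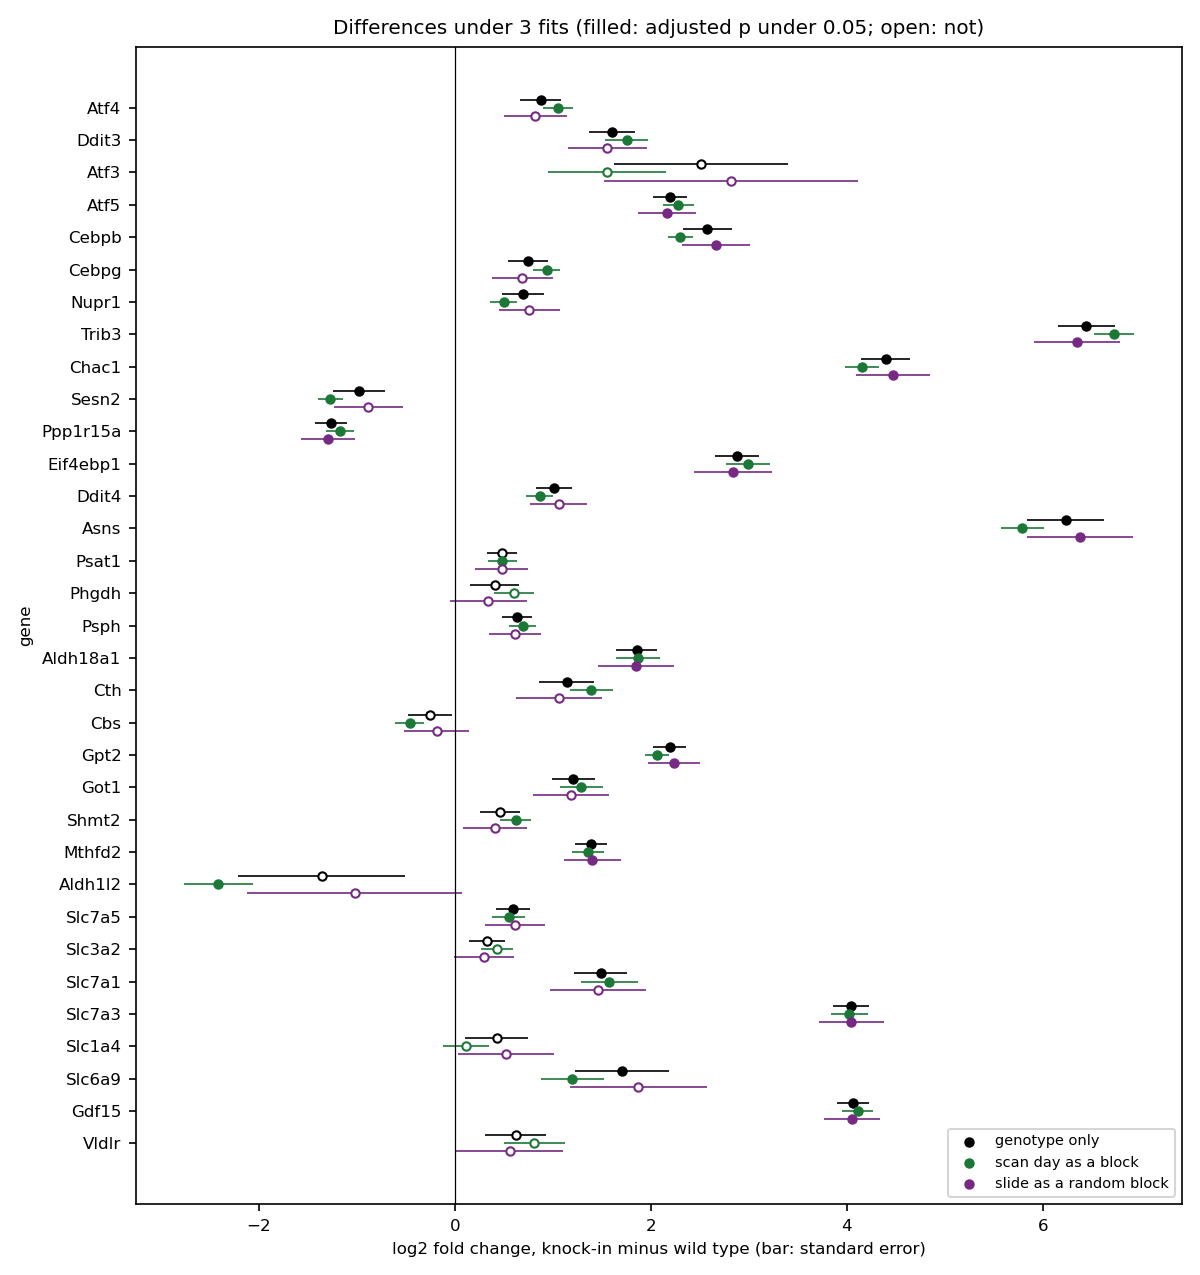
For each tested member the log2 fold change (knock-in minus wild type, horizontal axis, bar for the standard error) is drawn from the fit with genotype only in black, with scan day as a block in green and with slide as a random block in purple; filled points have an adjusted p under 0.05. The points of a gene mostly lie close together while the purple bars are longer, and 12 of the purple points are filled, against 24 of the black.

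Among the wild type arrays, array 3 was the highest in 11 of the 22 higher members, the lowest in 10 and between the others in 1. Without it, 24 members were higher, against 19% of all genes, and 3 lower, against 24.4%, with a median of 1.20. Over the fits that leave out 1 array the number higher ranged from this 24 down to 15 without knock-in array 2, where 6.2% of all genes were higher and 5.81% lower.

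Genes around the pathway were examined as lists, each read against the same background of 13.3% higher and 12.6% lower. The first list held eIF2 kinases, subunits of eIF2 and of eIF2B, a subunit of the eIF2 phosphatase and related factors. Of these, 1 of 18 tested was higher and 0 lower, with a median of 0.05. The kinase gene Eif2ak2 was not among those tested. The higher gene was Ppp1r15b (1.64, SE 0.42, adjusted p = 0.0287), the constitutive partner of the eIF2 phosphatase. It was well above background on 1 wild type array, so it passed the filter only through the knock-in arrays. Its call was lost without knock-in array 1 or 2 or wild type array 1 or 2 (adjusted p between 0.0791 and 0.0968), under the slide block (0.232) and after normexp with quantile normalization (0.35, adjusted p = 0.0534). The kinases Eif2ak3 (PERK) and Eif2ak4 (GCN2) had log2 fold changes of -0.04 (adjusted p = 0.948) and 0.05 (adjusted p = 0.884), and the sign of Eif2ak4 turned after normexp with quantile normalization.

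Of 20 tested tRNA synthetases and the tRNA exporter Xpot, which load and carry the tRNAs of protein synthesis, 9 were higher and 1 lower, with a median of 0.45. Aars (alanine) was higher by 1.70 (SE 0.16, adjusted p = 0.000668), Gars (glycine) by 1.37 (SE 0.14, adjusted p = 0.00101) and Iars (isoleucine) by 1.13 (SE 0.15, adjusted p = 0.0028), while Hars (histidine) differed by -1.003 (SE 0.18, adjusted p = 0.00863). The number higher was 5 with arrays centred on their median (8.94% of all genes higher) and 5 with no filter on dim probes (5.46%). It was 15 with array weights (33.5%). Without knock-in array 2, wild type array 1 and wild type array 2 it was 3 (6.2%), 4 (6.98%) and 5 (7.37%). Under the slide block 2 of the list, Aars (adjusted p = 0.0152) and Gars (adjusted p = 0.0229), kept their call, and Iars (adjusted p = 0.0571) and Hars (adjusted p = 0.141) did not.

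Of 20 further genes reported as targets of ATF4 or CHOP, 7 were higher and 3 lower, with a median of 0.30. The 3 lower include Pck2, whose signal stayed too dim in the whole knock-in group. It passed the filter only through the wild type arrays. Its knock-in level is therefore only an upper limit, which bounds the difference at 1.06-fold or more. Sqstm1, the autophagy receptor p62, was higher by 1.96 (SE 0.20, adjusted p = 0.000958), Sat1, which acetylates polyamines, by 1.53 (SE 0.15, adjusted p = 0.000855) and Nfil3, a basic leucine zipper factor, by 2.32 (SE 0.26, adjusted p = 0.0015). Vegfa, the vascular growth factor, was higher by 1.23 (SE 0.20, adjusted p = 0.00637). Herpud1, a component of the degradation machinery of the endoplasmic reticulum, differed by -1.13 (SE 0.19, adjusted p = 0.00657), and Slc7a11, the cystine importer, by 0.37 (SE 0.17, adjusted p = 0.144; 0.47 and 0.0382 without wild type array 3). Under the slide block Sqstm1, Sat1 and Nfil3 kept their call (adjusted p of 0.0174, 0.0181 and 0.033), and Vegfa (adjusted p = 0.0903) and Herpud1 (adjusted p = 0.11) lost it. The number higher was 4 without knock-in array 2 (6.2% of all genes higher), wild type array 1 (6.98%) or wild type array 2 (7.37%). With array weights it was 11 (33.5%).

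The ATF6 and XBP1 arm of the unfolded protein response, which raises chaperones of the endoplasmic reticulum, had 1 gene higher and 3 lower of 16, with a median of -0.17. Creld2 (-1.16, SE 0.22, adjusted p = 0.00976), Xbp1 (-0.70, SE 0.15, adjusted p = 0.0174) and the chaperone Hsp90b1 (-0.60, SE 0.17, adjusted p = 0.0394) were the lower genes. Atf6 was the higher one, at 1.62 (SE 0.36, adjusted p = 0.018). It was well above background on 1 wild type array, so it passed the filter only through the knock-in arrays. Hspa5, the main chaperone of this arm, differed by -0.14 (SE 0.17, adjusted p = 0.598), by 0.21 after quantile normalization and by 0.05 after normexp with it. With array weights it was at -0.27 (adjusted p = 0.0137), where 35% of all genes were lower. None of the list was called under the slide block. The call of Xbp1 was lost without knock-in array 2 or wild type array 1 or 2 (adjusted p between 0.0631 and 0.0766), that of Hsp90b1 without any 1 array other than wild type array 3 (between 0.0832 and 0.133) and that of Atf6 without any 1 knock-in array or wild type array 1 (between 0.0525 and 0.0662). After normexp with quantile normalization Atf6 was at 0.38 (adjusted p = 0.0561), Xbp1 at -0.40 (0.0616) and Hsp90b1 at -0.30 (0.235). With arrays centred on their median Xbp1 (0.0789) and Hsp90b1 (0.144) did not pass either, and 1 gene was lower, against 12.9% of all genes.

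Of 8 genes of the mitochondrial stress response, proteases and chaperones that look after mitochondrial proteins, 2 were higher and 1 lower, with a median of 0.36. Lonp1, which also counts among the further targets above, was higher by 0.87 (SE 0.19, adjusted p = 0.018) and Hspa9 by 0.63 (SE 0.17, adjusted p = 0.0375), and Hspe1 differed by -1.10 (SE 0.22, adjusted p = 0.012). Its chaperonin partner Hspd1 had a log2 fold change of 0.45 (adjusted p = 0.0576). Among 13 neighbouring enzymes of serine, folate, proline and asparagine metabolism outside the members, Prodh, which degrades proline, was the 1 called (1.32, SE 0.19, adjusted p = 0.00359), and the median was -0.10. With arrays centred on their median Lonp1 and Hspa9 did not pass (adjusted p of 0.0591 and 0.185). In that setting 0 of the mitochondrial list were higher, against 8.94% of all genes. The same held with no filter on dim probes (5.46%), and 4 were higher after quantile normalization (14.9%). Hspe1 was at -0.62 (adjusted p = 0.0771) after normexp with quantile normalization. No gene of either list was called under the slide block, where Prodh had an adjusted p of 0.0673. The call of Hspa9 was lost without any 1 array other than wild type array 3 (adjusted p between 0.0742 and 0.149), that of Lonp1 without knock-in array 2 or 4 or wild type array 1 or 2 (between 0.0583 and 0.0819) and that of Hspe1 without knock-in array 2 (0.0538) or wild type array 1 (0.054). Hspd1 passed in 6 of 17 alternatives, among them the fit without wild type array 3 (adjusted p = 0.0355). It was at 0.64 (adjusted p = 0.019) after quantile normalization and at 0.93 (adjusted p = 0.0017) after normexp with it.

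**Figure D4:**
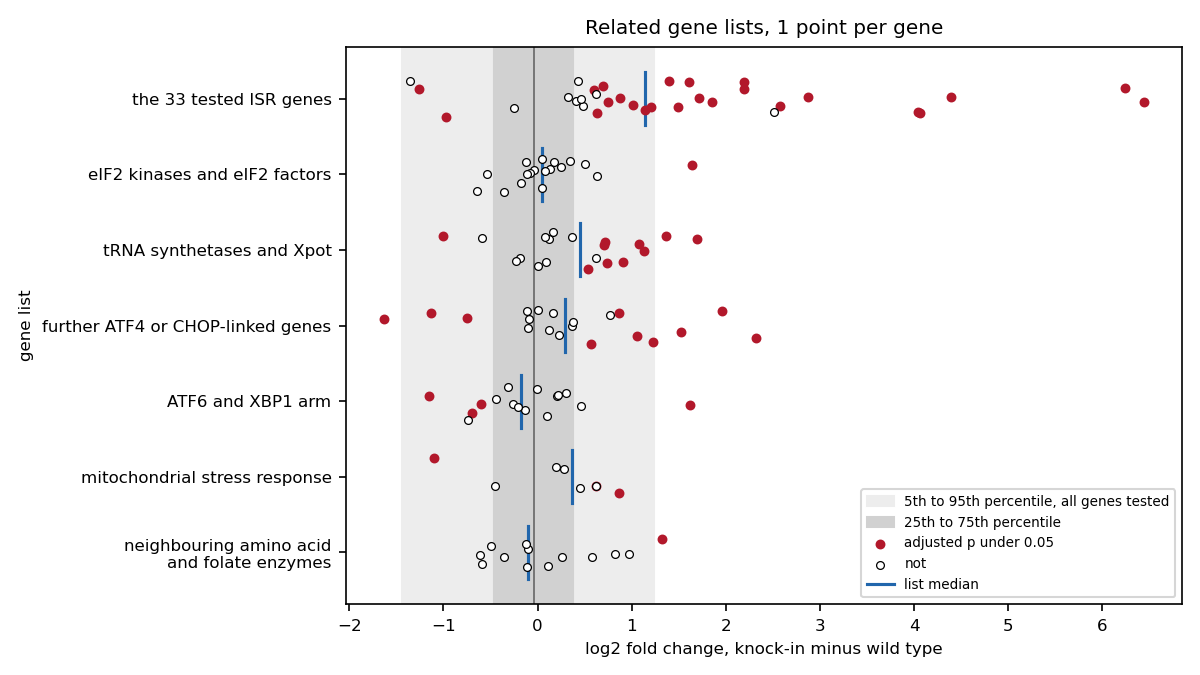
Each point is a gene, in rows for the members and 6 related lists, with the log2 fold change (knock-in minus wild type) on the horizontal axis, filled red where the adjusted p was under 0.05; blue bars are list medians and grey bands hold the 5th to 95th and 25th to 75th percentiles of all genes tested, -1.44 to 1.24 and -0.46 to 0.37. The median of the members, 1.14, lies outside the inner band; that of the tRNA synthetases, 0.45, lies just outside it, and those of the other lists lie within it.

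Other cell types could hold part of these transcripts, and their markers were summed on each array as linear signal relative to the 75th percentile. Over all genes tested 13.3% were higher and 12.6% lower, and each marker count is read against these shares. Lens fibre markers were lower in 5 of 10 genes tested and higher in 0. Lens epithelium markers summed to 48.1 to 54.3 in the knock-in against 32.4 to 40.2 in wild type. Of 6 genes 1 was higher (Pdpn) and 2 lower (Foxe3 and Aqp5). The knock-in sums came mostly from Pdpn, whose mean level was 5.37 against 3.82 in wild type, and do not speak for the whole list. Of the genes not called, Pax6 differed by 0.38, Cdh1 by -0.38 and Krt18 by -1.17. Markers of macrophages and leukocytes summed to 9.44 to 18.2 against 12.7 to 40.9. The wild type sums came mostly from Itgam, whose mean level was 4.61 against 2.97 in the knock-in. Among 7 tested, Tyrobp and C1qc were higher and Itgam lower. Of those not called, C1qa differed by 2.02, Csf1r by 0.79, Adgre1 by -0.39 and C1qb by -0.86. Tyrobp was well above background on 0 wild type arrays and C1qc on 1, so both passed the filter only through the knock-in arrays. Lyz2 was not well above background on any array. Stromal markers summed to 14.1 to 24.9 against 12.2 to 14.3, with Col1a1 and Col1a2 higher among 4 tested and Lum not well above background on any array. Pdgfra (-0.07) and Pdgfrb (-0.53) were tested and not called. Retina markers summed to 6.65 to 17.8 against 5.37 to 12.5. Of 2 tested, the rod factor Nrl was higher (4.13, adjusted p = 0.0354) and Rbp3 was not called (-0.50, adjusted p = 0.323). Knock-in levels of Nrl were -0.76, -1.36 and, on array 4, 3.04 against -2.93, -4.75 and -3.79. Nrl was well above background on 2 of 3 wild type arrays and passed the filter only through the knock-in arrays. Markers of pigment cells summed to 1.11 to 1.62 against 0.52 to 1.31, those of endothelium to 1.25 to 1.57 against 1.28 to 2.68 (Cdh5 and Tek not well above background on any array) and those of red cells to 0.19 to 0.36 against 0.21 to 0.40 (Hbb-bs and Alas2 likewise). The part of these markers in the differences of the members was not tested.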

How the data were processed

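The deposited files hold the intensity of each spot, background-subtracted by Agilent Feature Extraction, version 11.0.1.1 per the file headers and 9.1 per the submitters' processing notes. Spot flags (control, outlier, well above background) were used as deposited. The 75th percentile of an array over its 43020 non-control spots was subtracted from the log2 signal, without outlier spots, and the spots of each probe were averaged. A probe was kept where at least 50% of its spots were well above background on all arrays of 1 genotype (21076 of 39429 probes). Symbols and promoter windows came from RefSeq (GRCm38.p6), and the brightest probe stood for a gene.

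limma 3.58.1 in R 4.3.3 was fitted to all 12785 genes (4 residual degrees of freedom), after a test on simulated data. With 3 arrays per genotype the smallest exact permutation p is 0.1. Slides were inferred from scan times in the headers. Members and lists were chosen with earlier results of these data known. All members are accounted for. Of other lists, up to 4 genes with the smallest p among those past the threshold and up to 2 others for their role are named. Pck2 is named in addition for its dim signal. Alternatives covered scaling, background, filters, flags, probes, weights, blocks and left-out arrays. The number of arrays limits the precision.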

Additional observations from a re-analysis of the deposited data

How the results depend on the processing

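Over all genes 3312 calls were made, against 2002 of 20659 genes with no filter on dim probes, 8749 with array weights, 620 with slide as a random block, 5566 with scan day, 5446 with the replicate block and 1538 to 5661 without 1 array. Members called higher numbered 11 with the slide block, against 2.83% of all genes. Members called lower numbered 1 with no filter (4.24% of all genes lower) or with the slide block (2.02%). They numbered 4 with array weights (35%) or scan day (24%), and 1 to 3 without 1 array (5.81% to 24.4%). The median of the members was 1.02 to 1.20 without 1 array. Replicate numbers 1 and 2 are shared by the genotypes, and the deviations of these arrays from their group means correlated at 0.168 and -0.216. With 3 arrays per genotype and wild type array 3 apart, these values cannot show whether arrays of the same number were prepared together. The replicate block compares only arrays 1 and 2 of each genotype, since knock-in array 4 and wild type array 3 have no partner. With it 24 members were higher, against 18.3% of all genes, and 3 lower, against 24.3%. Directions turned for Slc1a4 (-0.0024, replicate block), Hspa5 (0.21, quantile normalization; 0.048, normexp with it), Eif2ak4 (-0.12, normexp with quantile normalization; -0.057 to 0.21 without 1 array) and Eif2ak3 (0.27, array weights; 0.10, scan day; -0.35 to 0.35 without 1 array). None of these turned values passed the test, and the cause was not tested. Hspa5 passed with array weights in its reported direction (-0.27, adjusted p = 0.0137), where 35% of all genes were lower. Over the 33 members, 466 values under an alternative kept direction and side of the threshold, 64 of 12 genes lost the call and 29 of 8 genes gained one. Setting dim members at a bound gave no value, since no tested member was below background in a whole group.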
